A study of Mus musculus with 38 samples.

Results

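Homeostatic astrocyte genes are genes that resting astrocytes use for their everyday work in the brain. Here they are 10 genes given by symbol, Slc1a2, Slc1a3, Glul, Aqp4, Gja1, Gjb6, Aldh1l1, Aldoc, Sox9 and S100b, out of the 48709 genes counted in each library. They were chosen by their known roles and not by a measured value, although earlier results of these data were known at the time. Each symbol was matched to 1 Ensembl gene. All 10 had reads in every library and passed the filter on low counts in each comparison.

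RNA was sequenced from whole hippocampus of 38 C57BL/6 mice. The APPPS1ΔE9 mice carry a mutant human amyloid precursor protein transgene and a presenilin 1 transgene that lacks exon 9, and they deposit amyloid β in plaques with age. The mouse prion protein promoter drives both, so that the mutant proteins are made in many cell types in amounts set by a foreign promoter. In the pre-plaque cohort, fed from before the onset of pathology and 6 months of age at sampling, 4 WT mice received placebo chow, 4 WT mice received chow with anle138b, 4 APPPS1ΔE9 mice received placebo and 4 APPPS1ΔE9 mice received anle138b. In the post-plaque cohort, fed from after its onset and 10 months of age at sampling, the corresponding numbers were 5, 5, 5 and 7. Anle138b is a diphenylpyrazole compound given here in the food, and the comparisons ask what the transgenes and the compound do to hippocampal gene expression.

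Astrocytes remove the glutamate that neurons release. The transporters encoded by Slc1a2 (GLT-1) and Slc1a3 (GLAST) carry it into the cell, and glutamine synthetase, encoded by Glul, converts it to glutamine, which returns to neurons. Astrocytes also move water, through the aquaporin-4 channels of their endfeet on blood vessels. They share ions and metabolites through gap junctions built from connexin 43 (Gja1) and connexin 30 (Gjb6). Near amyloid plaques astrocytes become reactive, a state marked by the filament protein gene Gfap.

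The transgene matched the genotype of every title. App, which the reads of the human transgene can reach, was at 3274 to 4286 CPM (the counts of a gene scaled to a common library size) in the 20 APPPS1ΔE9 mice and at 1522 to 1799 CPM in the 18 WT mice. The CPM of App and of the sex-linked genes were scaled by the library total alone. All other CPM values also used TMM factors over the 38 libraries. The deposited counts summed to between 15847985 and 31895808 per library, with a median of 24530658. The mice are described as male. However, 12 of the 38 libraries had Xist, the RNA that silences the second X chromosome of females, at 1154 to 1453 CPM and at most 1.89 CPM of Y-linked genes. These 12 were 3 of 4 pre-plaque WT mice on placebo, 2 of 4 on anle138b, 3 of 5 post-plaque WT mice on placebo, 3 of 5 on anle138b and 1 of 7 post-plaque APPPS1ΔE9 mice on anle138b, and no other APPPS1ΔE9 mouse, so that sex, as these transcripts show it, was partly confounded with genotype. The sequencing lane nearly coincided with the group. Lane and genotype cannot be told apart, since no genotype comparison within a cohort and chow had a lane in common. Chow groups shared lanes only in part. Lane 4 held 2 of 4 pre-plaque WT mice on anle138b and all 4 on placebo. It also held 1 of 5 post-plaque WT mice on placebo and all 5 on anle138b. Lane 5 held 1 of 7 post-plaque APPPS1ΔE9 mice on anle138b and all 5 on placebo. In pre-plaque APPPS1ΔE9 mice lane and chow cannot be told apart.

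Transcripts of other cell types varied between mice as well. The summed level of 8 oligodendrocyte markers separated 9 post-plaque mice, at 2523 to 4165 CPM, from the other 29 mice, at 5234 to 7969 CPM. The 9 were spread over genotype and chow, with 2 of 5 WT mice on placebo, 3 of 5 WT mice on anle138b, 2 of 5 APPPS1ΔE9 mice on placebo and 2 of 7 on anle138b. Choroid plexus and ependymal markers, led by Ttr, ranged in sum from 81.2 to 6687 CPM within the pre-plaque APPPS1ΔE9 mice on placebo alone. Ttr was at 32.29, 654.7 and 147.5 CPM in replicates 2, 3 and 4 of that group. In the other pre-plaque groups it was low only in replicate 4, at 139 (WT placebo), 208.1 (WT anle138b) and 123.7 CPM (APPPS1ΔE9 anle138b). The rest of the cohort lay at 3731 to 7509 CPM, so that low Ttr was partly confounded with the APPPS1ΔE9 placebo group. In bulk tissue such as this, fewer astrocytes and less RNA per astrocyte cannot be told apart.

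Measured as CPM per kilobase of exonic sequence, so that long and short transcripts can be compared, the 10 genes spanned a wide range of levels. Glul was highest, with a median of 353 CPM per kilobase over the 38 mice, followed by Aldoc, the brain form of the glycolytic enzyme aldolase, at 253, and Slc1a2 at 203. S100b, which encodes a calcium-binding protein, and Slc1a3 lay close together at 83.01 and 80.9 CPM per kilobase. Aqp4 at 28.1, Gja1 at 21.5 and Gjb6 at 19.2 formed a lower group, and Aldh1l1, an enzyme of folate metabolism used as an astrocyte marker, was at 10.8. Sox9, the transcription factor of astrocyte identity, was lowest at 5.71 CPM per kilobase, and its smallest count in any library was 313.

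Of the 9 neighbouring pairs in this order, most kept their order in nearly all mice. Glul lay above Aldoc in 36 of the 38 mice, Aldoc above Slc1a2 in 37, Aqp4 above Gja1 in 36 and Gja1 above Gjb6 in 33. S100b lay above Slc1a3 in only 27 mice, and the difference of this pair was not tested. Slc1a2 and S100b, Slc1a3 and Aqp4, Gjb6 and Aldh1l1, and Aldh1l1 and Sox9 did not overlap in any mouse. Between groups the levels moved little, and the highest group mean was between 1.10 times the lowest, for Slc1a2, and 1.38 times, for Sox9.

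**Figure D1:**
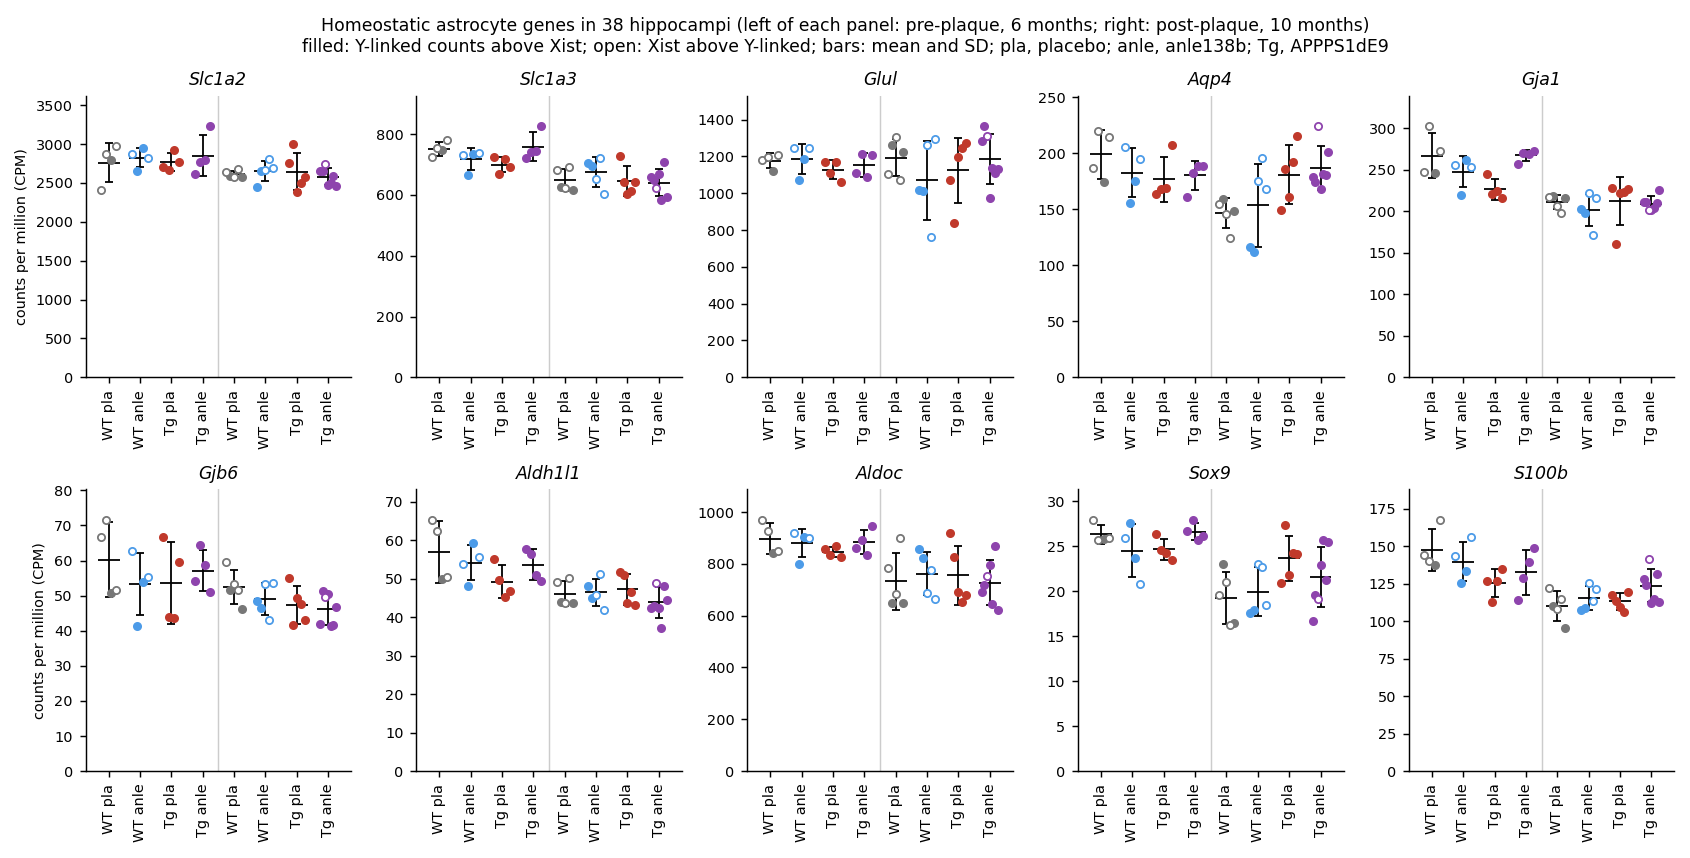
Level of each of the 10 astrocyte genes (CPM, vertical axes that differ between panels) in the 8 groups, with 1 point per mouse and bars at the group mean and SD. Filled points are mice with Y-linked counts above Xist and open points the other 12. The groups overlap widely in nearly every panel, and within the pre-plaque cohort the APPPS1ΔE9 mice on placebo have the lowest Gja1 mean, 226.1 CPM (215.5 to 244.1 CPM), which is above those of the 4 post-plaque groups.

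The sequences in front of 4 of these genes are shown. Slc1a3, Aldoc and Glul were picked for how they varied between mice and Gja1 for its small p-values in the pre-plaque comparisons. The part of these sequences in the levels was not tested. Each sequence is the stretch of 250 bases before the start of the gene in RefSeq, on the GRCm38.p6 assembly and in the direction of transcription. Slc1a3 covers chr15:8710808-8711057 on the minus strand, Aldoc chr11:78322823-78323072, Glul chr1:153899679-153899928 and Gja1 chr10:56377050-56377299, all 3 on the plus strand, and for Aldoc 1 of 2 RefSeq entries was taken, the one nearest to the GENCODE start. Capitals mark matches, on either strand, to the NFI motif TTGGC, the SOX core ACAAT, the TATA box TATAAA and the CCAAT box CCAAT, and the last can overlap an NFI motif on the other strand.
Slc1a3: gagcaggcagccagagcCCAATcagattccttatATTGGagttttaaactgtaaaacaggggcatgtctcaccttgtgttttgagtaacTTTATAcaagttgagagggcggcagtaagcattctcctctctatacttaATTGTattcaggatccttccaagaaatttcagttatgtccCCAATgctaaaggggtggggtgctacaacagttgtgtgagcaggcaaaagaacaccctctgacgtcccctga
Aldoc: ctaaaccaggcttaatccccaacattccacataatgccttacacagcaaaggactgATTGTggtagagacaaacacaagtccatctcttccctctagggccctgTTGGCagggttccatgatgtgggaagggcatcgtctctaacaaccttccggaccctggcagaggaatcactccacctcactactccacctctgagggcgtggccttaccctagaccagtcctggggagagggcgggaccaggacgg
Glul: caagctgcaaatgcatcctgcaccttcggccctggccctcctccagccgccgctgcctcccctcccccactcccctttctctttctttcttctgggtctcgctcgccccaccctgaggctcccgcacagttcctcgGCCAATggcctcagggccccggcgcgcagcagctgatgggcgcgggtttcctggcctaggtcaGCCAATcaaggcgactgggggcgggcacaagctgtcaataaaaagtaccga
Gja1: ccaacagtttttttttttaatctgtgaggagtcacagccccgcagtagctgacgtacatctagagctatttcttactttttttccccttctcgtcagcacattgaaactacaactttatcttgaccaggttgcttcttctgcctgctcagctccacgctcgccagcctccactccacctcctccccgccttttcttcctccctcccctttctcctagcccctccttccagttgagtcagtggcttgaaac

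Slc1a3 held 3 CCAAT boxes, 1 SOX core and 1 TATA box match, which lay on the opposite strand 161 to 156 bases before the start. Aldoc held 1 NFI motif and 1 SOX core, and Glul held 2 CCAAT boxes that overlap 2 NFI motifs of the opposite strand. Gja1 held none of the 4 in this window. Of 32851 promoters of this length in the table, 41.5% held the NFI motif, 27.7% the SOX core, 12.4% the TATA box and 33.8% the CCAAT box. The G and C content was 44.8% for Slc1a3, 55.2% for Aldoc, 64.8% for Glul and 50.0% for Gja1, against a median of 52.4% over all promoters.

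The first comparison asked what the transgenes did at 6 months in mice on placebo. Most of the astrocyte genes were a little lower in APPPS1ΔE9 mice, but none of the 10 passed an adjusted p of 0.1 in edgeR's quasi-likelihood test, where 0.0715% of all genes tested were called. With no adjustment 3 of the 10 had p under 0.05, all lower, against 11.1% of all genes in either direction and 5.86% lower at that p. DESeq2 called 139 genes, among them 1 member, Gja1 (adjusted p = 0.0995 by DESeq2), and had 4 members with unadjusted p under 0.05. The median log2 fold change was −0.14 for the 10 genes and 0.0023 for all genes tested, and 9 of the 10 estimates were below 0.

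Gja1 (chr10:56377330-56402513 on GRCm38), the main connexin of astrocytes, was at 246.6, 302.7, 245.6 and 271.9 CPM in WT mice on placebo. In the APPPS1ΔE9 mice on placebo it was at 244.1, 220.5, 224.3 and 215.5 CPM. All 4 transgenic mice thus lay below all 4 WT mice, the highest just under the lowest, and the log2 fold change was −0.24 (SE 0.07, 95% interval −0.39 to −0.09, adjusted p = 0.349 by edgeR).

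S100b (chr10:76253853-76261159) was the other member whose groups did not overlap. It was at 144.2, 140.1, 137.5 and 167.8 CPM in WT mice and at 126.8, 113.1, 127.1 and 135.1 CPM in APPPS1ΔE9 mice, a log2 fold change of −0.23 (SE 0.07, edgeR adjusted p = 0.36). Groups without overlap in either direction made up 5.86% of all genes. Aldh1l1 (chr6:90486427-90600203), the third with unadjusted p under 0.05, was at 65.34, 62.32, 49.83 and 50.44 CPM in WT mice and 54.98, 49.76, 45.28 and 46.72 CPM in transgenic mice, which overlapped (log2 fold change −0.21, SE 0.09, edgeR adjusted p = 0.438).

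Genotype and sex can hardly be told apart in this comparison. Only 1 of the 4 WT mice on placebo at this age had Y-linked reads, against all 4 APPPS1ΔE9 mice. With the presence of Y-linked reads as a covariate, no member was called, against 0.0238% of all genes, none had an unadjusted p under 0.05, and the members' median log2 fold change was −0.02. In that edgeR fit Gja1 stood at −0.12 (95% interval −0.36 to 0.11) and S100b at −0.13 (−0.39 to 0.12), values that rest on 1 WT mouse, so that this fit does not show whether the differences hold within a sex. Over all 8 groups the estimate for sex, mice with Xist reads minus those with Y-linked reads, was 0.02 for Gja1 (95% interval −0.09 to 0.12), 0.18 for S100b and 0.10 for Aldh1l1.

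Other transcripts moved in the same comparison. The 8 oligodendrocyte markers were all lower in APPPS1ΔE9 mice, with a median log2 fold change of −0.15 and 2 of them with unadjusted p under 0.05 by edgeR. With the oligodendrocyte level as a covariate the members' median was −0.10, 1 member had an unadjusted p under 0.05, and Gja1 stood at −0.26. The choroid plexus and ependymal list moved too, with 8 of its 8 genes lower in APPPS1ΔE9 mice and a median log2 fold change of −1.001, and with high Ttr as a covariate Gja1 stood at −0.22. Of the reactive astrocyte genes 12 of the 14 tested were higher in APPPS1ΔE9 mice, 5 with unadjusted p under 0.05, none called, and the median was 0.34. Of the 8 microglia markers 6 were higher, 3 with unadjusted p under 0.05 and none called, and of the 8 plaque-associated microglial genes 7 were higher, 3 of them called, with a median of 0.69. The part of these transcripts in the members' values was not tested. The sequencing lanes of the 2 groups differed, and the part of the lane was not tested.

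In the mice fed anle138b at the same age no member passed the test between genotypes. None of the 10 was called by edgeR, against 0.047% of all genes, none had unadjusted p under 0.05 against 5.64% of all genes, and DESeq2 gave 0 for both counts. The median log2 fold change was 0.01, with 6 of the 10 above 0. Gja1 again had the smallest p, but with the sign reversed. It was at 255.4, 219.9, 261.2 and 252.5 CPM in WT mice on anle138b and at 256.8, 270.1, 268.4 and 272.8 CPM in APPPS1ΔE9 mice on anle138b. The groups overlapped, as did those of every member, against 3.29% of all genes without overlap, and the log2 fold change was 0.11 (95% interval −0.01 to 0.24, adjusted p = 0.836 by edgeR). With the sex covariate or in mice with Y-linked reads alone no member was called, against 0.0528% and 0.0456% of all genes.

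Anle138b was then compared with placebo within each genotype. In WT mice of the pre-plaque cohort none of the 10 genes was called by edgeR or by DESeq2, nor had any an unadjusted p under 0.05 with either, and of all genes 0% were called and 1.85% had such a p. The median log2 fold change was −0.07, with 8 of the 10 below 0. No member had groups without overlap, against 1.62% of all genes. Gja1 had the smallest p, with the values given above and a log2 fold change of −0.11 (95% interval −0.27 to 0.06, adjusted p = 1 by edgeR).

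In APPPS1ΔE9 mice of the pre-plaque cohort all 10 estimates were above 0, with a median log2 fold change of 0.09. None was called by edgeR, where 0.0529% of all genes were, and Gja1 alone had an unadjusted p under 0.05, against 13.1% of all genes in either direction and 5.5% higher at that p. Its log2 fold change on anle138b was 0.24 (SE 0.05, 95% interval 0.13 to 0.35, adjusted p = 0.247 by edgeR). The values given above do not overlap, since the 4 mice on anle138b lay at 256.8 CPM or more and the 4 on placebo at 244.1 CPM or less, as 6.02% of all genes did in either direction in this comparison.

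The call for Gja1 here depended on the settings. DESeq2 called it with an adjusted p of 0.00154, as it did 204 genes where edgeR called 9, and DESeq2 gave 2 members an unadjusted p under 0.05. Without a filter on low counts edgeR gave an adjusted p of 0.0289. Without replicate 1 of the placebo mice, the single mouse of that group with high Ttr, the log2 fold change was 0.28 and the adjusted p 0.0355 by edgeR. With high Ttr as a covariate its log2 fold change was 0.21 (adjusted p = 0.502 by edgeR). The 8 choroid plexus and ependymal markers were all higher on anle138b in this comparison, with a median of 1.07. Genes of the reactive glia were mostly lower on anle138b, though none was called by edgeR. They were 12 of the 15 reactive astrocyte genes tested (5 with unadjusted p under 0.05, median −0.11), 7 of the 8 microglia markers (2 with unadjusted p under 0.05, median −0.17) and 7 of the 8 plaque-associated microglial genes (5 with unadjusted p under 0.05, median −0.48). This comparison and the genotype comparison share the APPPS1ΔE9 mice on placebo, and the part of these transcripts in the members' values was not tested. The 2 groups were sequenced in different lanes, whose part was not tested.

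**Figure D2:**
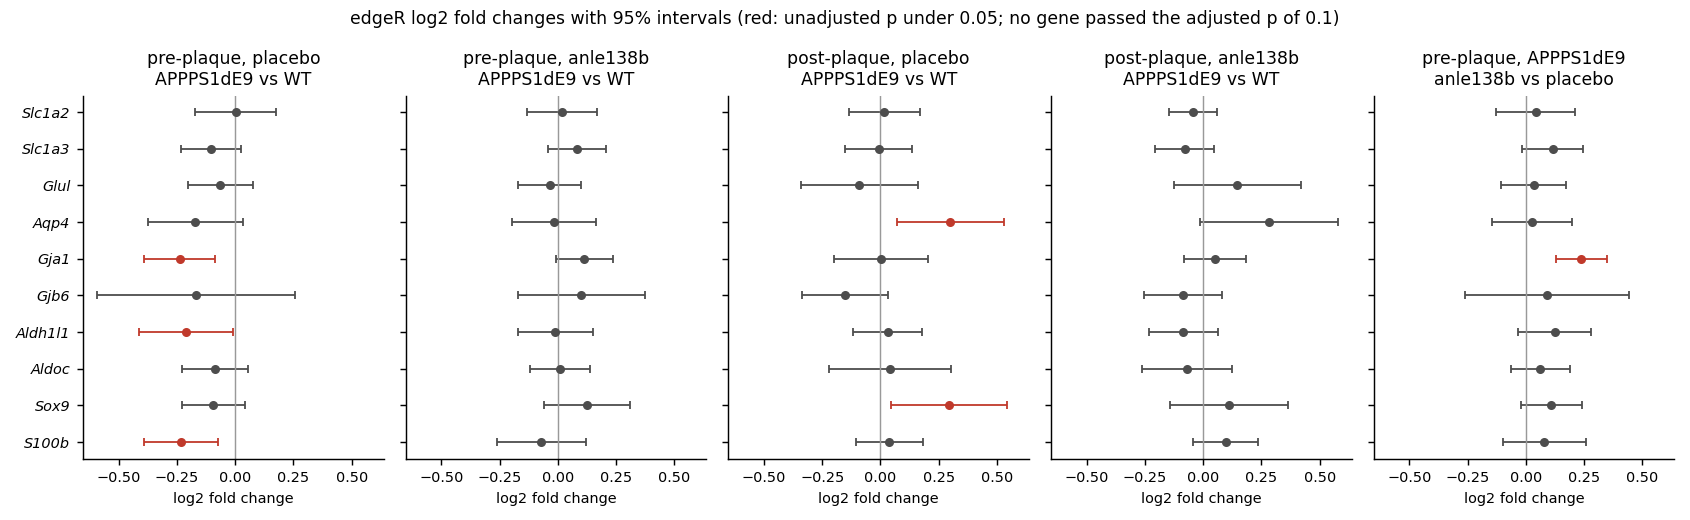
Log2 fold change of each of the 10 genes (points, with 95% intervals from edgeR, red where the unadjusted p is under 0.05) in the 4 comparisons of genotype and in that of chow in pre-plaque APPPS1ΔE9 mice, with a line at 0. In the pre-plaque placebo comparison 9 of the 10 lie below 0, and in the chow comparison all 10 lie above it.

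The genotype by chow interaction asks whether the chow acted differently in the 2 genotypes. In the pre-plaque cohort all 10 interaction terms were above 0 on the log2 scale, with a median of 0.18, and none was called by edgeR (0% of all genes) or DESeq2. Unadjusted p was under 0.05 for 3 members by edgeR and 2 by DESeq2, against 7.99% of all genes in either direction and 4.59% in this one by edgeR. They were Gja1 at 0.36 (SE 0.09, 95% interval 0.16 to 0.55, adjusted p = 0.533 by edgeR), Slc1a3 at 0.19 (adjusted p = 0.618) and Sox9 at 0.22 (adjusted p = 0.621). The interaction shares the placebo mice with the comparisons above and is not independent of them.

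At 10 months, among mice on placebo, 7 of the 10 genes were higher in APPPS1ΔE9 mice, with a median log2 fold change of 0.02, and none was called by edgeR, against 0.324% of all genes, or by DESeq2. Unadjusted p was under 0.05 for 2 members by either tool, both higher by edgeR, against 4.1% of all genes in either direction and 2.59% higher at that p by edgeR.

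Aqp4 (on chromosome 18) was at 154.6, 159.1, 145.6, 124.2 and 149.0 CPM in the post-plaque WT mice on placebo. In the APPPS1ΔE9 mice on placebo it was at 149.2, 186.3, 160.9, 192.2 and 215.6 CPM. The lowest transgenic mouse lay within the WT range and the other 4 lay above it, and the log2 fold change was 0.30 (SE 0.11, 95% interval 0.07 to 0.53, adjusted p = 0.874 by edgeR).

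Sox9 (chr11:112782224-112787760) was at 19.52, 22.98, 20.98, 16.19 and 16.41 CPM in the same WT mice and at 20.87, 27.28, 21.81, 24.22 and 24.07 CPM in the APPPS1ΔE9 mice. In the transgenic mice 3 of the 5 values lay above every WT value, and the log2 fold change was 0.29 (SE 0.11, 95% interval 0.05 to 0.54, adjusted p = 1 by edgeR). No member had groups without overlap here, against 1.39% of all genes. The 8 microglia markers were all higher in these APPPS1ΔE9 mice, at sums of 433.2 to 566.2 CPM against 306.9 to 384.0 CPM in WT mice, and their part in the values of Aqp4 and Sox9 was not tested.

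In the post-plaque mice on anle138b none of the 10 was called by edgeR, against 0.723% of all genes, and none had unadjusted p under 0.05, against 5.78%. DESeq2 called none and gave 1 an unadjusted p under 0.05. Aqp4 had the smallest p, at a log2 fold change of 0.28 (95% interval −0.02 to 0.58, adjusted p = 0.838 by edgeR). It was at 116.5, 112.2, 175.0, 195.7 and 168.6 CPM in the 5 WT mice and had a lowest, median and highest value of 168.1, 180.8 and 224.7 CPM in the 7 APPPS1ΔE9 mice. The WT mice on anle138b thus fell in 2 sets, and the 3 higher ones are those with Xist reads. No member had groups without overlap, against 0.85% of all genes. The 8 microglia markers were again all higher in APPPS1ΔE9 mice.

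In the post-plaque cohort no member passed a test of anle138b against placebo. None was called, and none had unadjusted p under 0.05, by edgeR or DESeq2 in either genotype, while of all genes edgeR called 0% in both and had unadjusted p under 0.05 for 1.25% in WT mice and 1.48% in APPPS1ΔE9 mice. The smallest p in WT mice was that of Gjb6 (chr14:57123303-57133611), at 59.57, 51.48, 53.35, 51.67 and 46.33 CPM on placebo and 48.40, 46.40, 53.43, 43.01 and 53.59 CPM on anle138b. Its log2 fold change was −0.10 (95% interval −0.28 to 0.08, adjusted p = 1 by edgeR), and the groups overlapped, as they did for every member against 0.302% of all genes without overlap. In APPPS1ΔE9 mice the smallest p was that of S100b, at 117.2, 113.7, 109.7, 106.0 and 119.6 CPM on placebo and at 112.3 to 141.3 CPM, with a median of 124.3, on anle138b (log2 fold change 0.13, 95% interval −0.00 to 0.26, adjusted p = 0.999 by edgeR), and no member had groups without overlap, against 0.0494% of all genes. The post-plaque interaction of genotype and chow called no member with either tool, gave none an unadjusted p under 0.05, against 0% and 2.3% of all genes by edgeR, and had a median of −0.04. Glul had its smallest p, at 0.24 on the log2 scale (95% interval −0.13 to 0.61, adjusted p = 0.989 by edgeR).

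Whether the genotype effect differed between the cohorts was tested in the mice on placebo. The interaction was above 0 for 9 of the 10 genes, with a median of 0.18 on the log2 scale. EdgeR called none of them and 0% of all genes, DESeq2 also called no member, and both gave 3 members an unadjusted p under 0.05, where 6.16% of all genes had one in either direction and 3.4% in this one by edgeR. They were Aqp4 at 0.47 (SE 0.15, 95% interval 0.15 to 0.79, adjusted p = 0.691 by edgeR), Sox9 at 0.38 (adjusted p = 0.705) and S100b at 0.27 (adjusted p = 0.758). Only 1 pre-plaque WT mouse on placebo had Y-linked reads, so genotype and sex can hardly be told apart here. Age and any other difference between the cohorts cannot be told apart.

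With all 38 mice in 1 fit and cohort and chow as strata, genotype was tested with the most mice. EdgeR called 1.63% of all genes and none of the 10, DESeq2 also called none of the 10, and the members' median log2 fold change was −0.02. Sox9 alone had an unadjusted p under 0.05, against 8.69% of all genes in either direction and 4.93% higher at that p, at a log2 fold change of 0.12 (SE 0.06, adjusted p = 0.544 by edgeR), and DESeq2 gave 1 member such a p. For chow, edgeR called 0.011% of all genes and no member, DESeq2 called none, and no member had an unadjusted p under 0.05 by either tool, against 3.53% of all genes by edgeR. S100b had the smallest p for chow, at a log2 fold change of 0.06 (95% interval −0.02 to 0.14, adjusted p = 1 by edgeR). The genotype estimate of Gja1 over all mice was −0.01 on the log2 scale, with a 95% interval of −0.09 to 0.08.

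Aqp4 had the largest estimate for sex among the 10 genes. With the 8 groups as strata, mice with Xist reads had a higher Aqp4 level by 0.27 on the log2 scale (SE 0.07, 95% interval 0.12 to 0.41, adjusted p = 0.255 by edgeR). The groups did not all follow this. In post-plaque WT mice on anle138b the lowest value, 112.2 CPM, had Y-linked reads and the highest, 195.7 CPM, Xist reads. In those on placebo the lowest, 124.2 CPM, had Xist reads and the highest, 159.1 CPM, Y-linked reads. This estimate was not refitted without single mice. S100b was higher by 0.18 (SE 0.04, adjusted p = 0.164) and Gjb6 by 0.19 (SE 0.08, adjusted p = 0.702). None of the 10 was called in this comparison, against 0.154% of all genes, 3 had an unadjusted p under 0.05 (Aqp4, S100b and Gjb6), against 5.98% of all genes in either direction, and the other 7 lay between −0.00 and 0.10. DESeq2 was not run for it.

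Taking sex into account raised Aqp4 past the threshold in 2 comparisons. In the post-plaque mice on anle138b, with Y-linked reads as a covariate, its log2 fold change was 0.55 (SE 0.08, 95% interval 0.38 to 0.72, adjusted p = 0.00455 by edgeR), in a fit that called 1.74% of all genes. Among the mice with Y-linked reads alone, 2 WT against 6 APPPS1ΔE9, it was 0.66 (adjusted p = 0.0197 by edgeR), where 0.289% of all genes were called. The 2 WT mice were at 116.5 and 112.2 CPM, below all 7 transgenic mice. Over all 38 mice with the covariate the log2 fold change of Aqp4 was 0.30 (SE 0.08, 95% interval 0.14 to 0.45, adjusted p = 0.0335 by edgeR), in a fit that called 1.82% of all genes, and over the 26 mice with Y-linked reads it was 0.28 (adjusted p = 0.0471 by edgeR), where 3.48% were called.

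These calls leaned on few WT mice. Left out in turn, the mice kept Aqp4 past the threshold in 12 of 12 fits of the post-plaque anle138b comparison with the covariate and in 35 of 38 fits over all mice with it. The call over all mice was lost without replicate 1 or 2 of the post-plaque WT mice on anle138b (adjusted p = 0.142 and 0.188 by edgeR) or without replicate 3 of the post-plaque APPPS1ΔE9 mice on anle138b (0.153), the 1 transgenic mouse with Xist reads. In the mice with Y-linked reads the call was lost in the post-plaque anle138b comparison without either of those 2 WT mice (adjusted p = 0.385 and 0.359 by edgeR). Over all 26 mice with Y-linked reads it was kept in 23 of 26 fits, and lost without either of them (0.155 and 0.168) or without replicate 2 of the pre-plaque WT mice on anle138b (0.174). The 2 post-plaque WT mice are also among the 9 mice with few oligodendrocyte transcripts and had 300.1 and 316.1 CPM of summed microglia markers, of which the first was the lowest sum of all mice. The part of these transcripts in the calls was not tested. In the post-plaque placebo mice the covariate gave Aqp4 a log2 fold change of 0.22 (adjusted p = 0.799 by edgeR), in a fit that called 0.0884% of all genes, and in the mice with Y-linked reads alone, where 0.0453% were called, no member was called.

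Other genes of astrocytes gave no call either. Of 26 other astrocyte genes, among them the potassium channel Kcnj10, edgeR called 0 in every one of the 13 comparisons, with 0 to 12 at unadjusted p under 0.05. In the pre-plaque placebo comparison 24 of the 26 were lower in APPPS1ΔE9 mice, and the median log2 fold change was −0.16. Of these, 12 had unadjusted p under 0.05, against 5.86% of all genes lower at that p. With anle138b in the APPPS1ΔE9 mice of that cohort 22 of the 26 were higher, 6 with unadjusted p under 0.05, against 5.5% of all genes. In the pre-plaque interaction 25 of the 26 terms were above 0, with a median of 0.20. Unadjusted p was under 0.05 for 10, against 4.59% of all genes above 0 at that p. In the placebo comparison genotype cannot be told apart from lane, and hardly from sex. In the APPPS1ΔE9 mice chow and lane cannot be told apart. These 26 genes were not examined with the sex covariate.

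Genes that work with single members were looked at next. EdgeR called 0 of the 14 genes of the glutamate and glutamine cycle, such as the glutamine carriers of the Slc38a family and glutaminase, in any comparison, with 0 to 4 at unadjusted p under 0.05, and in the pre-plaque placebo comparison their median log2 fold change was 0.08, with 2 higher and 1 lower at unadjusted p under 0.05. It also called 0 of the 8 genes of the endfoot complex that anchors aquaporin-4 and 0 of the 8 other connexin and pannexin genes, with 0 to 1 of either list at unadjusted p under 0.05. In that comparison none of these 16 had an unadjusted p under 0.05, with medians of 0.03 for the endfoot genes and −0.12 for the connexins, of which 7 were tested. Of the lists, only the 10 members were also tested with DESeq2.

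The reactive state of astrocytes was measurable in the same libraries. Of 16 reactive astrocyte genes 15 were tested over all mice, and 5 were called higher in APPPS1ΔE9 mice by edgeR. Of the 5 called, the 4 with the largest change were as follows. Aspg rose by 0.72 on the log2 scale (adjusted p = 7.89e-05 by edgeR), Gfap by 0.71 (adjusted p = 0.000906), the complement gene C4b by 0.71 (adjusted p = 1.03e-05) and the cytokine receptor gene Osmr by 0.50 (adjusted p = 0.000721). Gfap was at 337.5 to 521.2 CPM in post-plaque WT mice on placebo and at 613.4 to 1345 CPM in the APPPS1ΔE9 mice, without overlap, although its adjusted p there was above the threshold (log2 fold change 1.10, adjusted p = 0.164 by edgeR). C4b was also called in the post-plaque mice on anle138b, at 0.88 (adjusted p = 0.0109 by edgeR), and no reactive gene was called in any other comparison.

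Genes of other cell types gave the frame for these values. Of the 8 microglia markers, edgeR called 2 higher in the post-plaque placebo mice, 4 in those on anle138b and 5 over all mice, C1qa first among them with log2 fold changes of 0.81, 0.88 and 0.60. Of 8 plaque-associated microglial genes 3, 6, 7 and 6 were called in the pre-plaque placebo, post-plaque placebo, post-plaque anle138b and all-mice comparisons. Cst7, an inhibitor of cathepsins, changed most, by 5.12, 6.33, 6.14 and 5.77. None of the 10 neuron, 8 oligodendrocyte, 5 oligodendrocyte precursor, 7 endothelial or 8 choroid plexus and ependymal markers was called in any comparison by edgeR, with at most 3 of a list at unadjusted p under 0.05.

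**Figure D3:**
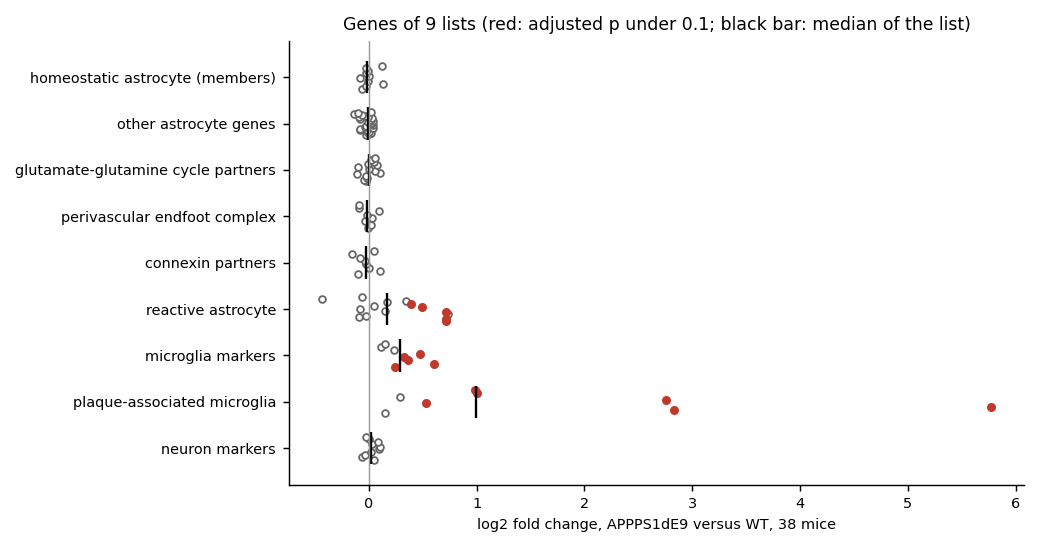
Log2 fold change of APPPS1ΔE9 against WT mice over all 38 mice for the genes of 9 lists, with 1 point per gene, red where the adjusted p is under 0.1, and a bar at the median of the list. The reactive, microglia and plaque-associated lists have medians of 0.17, 0.29 and 0.99, while that of the 10 homeostatic genes is −0.02.

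The mice with few oligodendrocyte transcripts differed from the rest of their cohort in several of the 10 genes. Glul (chr1:153899944-153909723), which oligodendrocytes also express, was at 761.5 to 1110 CPM in the 9 post-plaque mice below 5000 CPM of oligodendrocyte markers and at 1131 to 1366 CPM in the other 13 post-plaque mice. Aldoc (chr11:78322968-78327781) showed the opposite, at 777.5 to 921 CPM in the 9 and 620.6 to 753 CPM in the 13. Neither gene overlapped between the sets, and the share of all genes without overlap in this split was not computed. Slc1a3 (chr15:8634124-8710764) was at 641.9 to 728.7 CPM against 582.5 to 659 CPM, with an overlap. Slc1a2 (chr2:102658659-102790784), at 2449 to 3007 against 2387 to 2742 CPM, Sox9 and Gjb6 overlapped widely. The sets were formed after the values were seen, hold both genotypes and both chows, and are given as a description with no test.

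With the oligodendrocyte marker level as a covariate no member was called in any of the 13 comparisons by edgeR, and none in the 8 comparisons with post-plaque mice when these 9 mice were left out. The share of all genes called in these fits is not given here, so these counts of 0 cannot be set against it. Without the 9 mice 0 to 2 members had an unadjusted p under 0.05 in 7 of the 8 comparisons, for which the share of all genes was not computed. In the genotype by cohort interaction 4 had one (Aqp4, Gja1, Sox9 and S100b, at 0.49, 0.30, 0.30 and 0.32 on the log2 scale), against 10.2% of all genes in either direction. Aqp4 stood at 0.32 in the post-plaque placebo comparison without them and at 0.16 in the post-plaque anle138b comparison, where 2 WT mice remained, both with Xist reads.

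**Figure D4:**
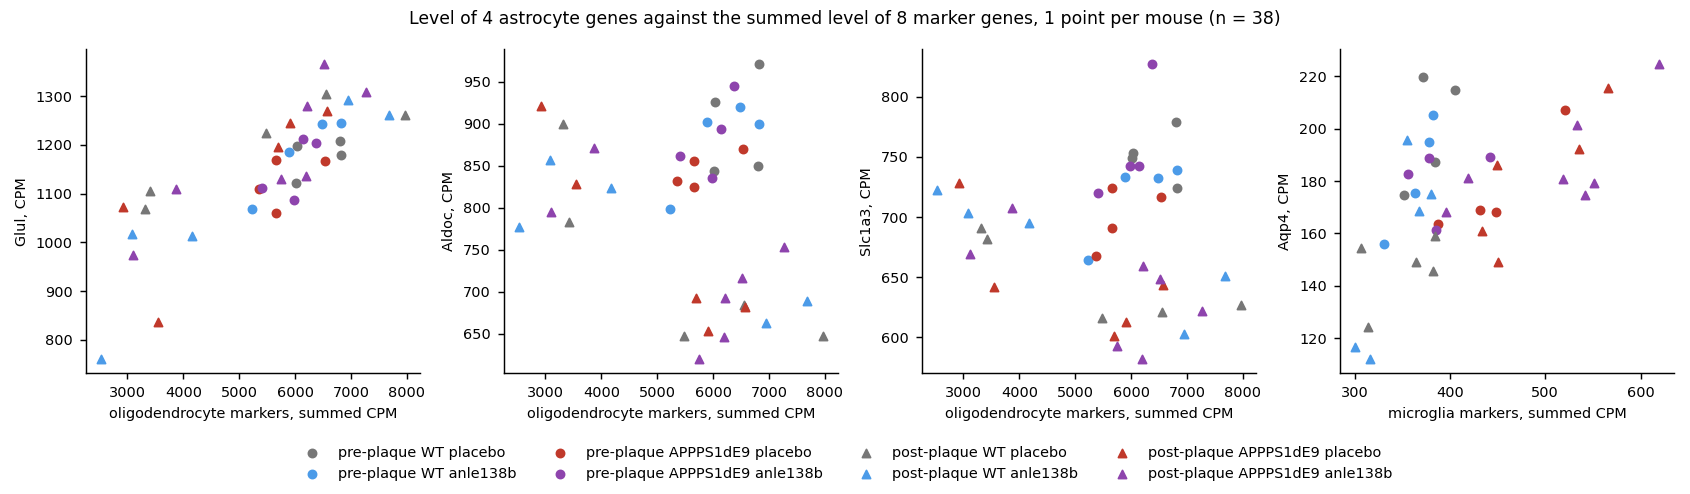
Level of Glul, Aldoc and Slc1a3 (CPM) against the summed level of 8 oligodendrocyte markers, and of Aqp4 against the summed level of 8 microglia markers, with 1 point per mouse (38 mice, circles pre-plaque, triangles post-plaque). The 9 mice at 2523 to 4165 CPM of oligodendrocyte markers have the lowest Glul and the highest Aldoc of the post-plaque cohort.

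How the 10 genes varied together was therefore measured in the 29 mice with more oligodendrocyte transcripts, as deviations of log2 CPM from the mean of each group. These deviations do not take sex into account, and its part in the correlations was not tested. Of the 45 pairs of members, 8 had a correlation with a permutation p, adjusted over the 45, under 0.05. All 8 were positive, and the median Pearson's r over the pairs was 0.33. The pair with the smallest p was that of the glutamate transporters, Slc1a2 with Slc1a3 (r = 0.753, permutation p = 5e-05 and 0.00225 adjusted). Its Spearman's rho was 0.732 (permutation p = 0.0003 and 0.00675 adjusted), its r was 0.715 without the 2 mice farthest from the median of the first gene, and it was 0.822 over the 16 mice of 6 months and 0.675 over the 13 of 10 months. Over all 38 mice it kept an adjusted permutation p under 0.05 (r = 0.478, 0.0364 adjusted), as did S100b with Slc1a2 and with Aqp4. Pairs outside the 8 also had one over the 38. They were Slc1a3 with Aldoc (r = 0.792, 0.00045 adjusted, the smallest), Glul with Gja1 (0.714, 0.0033 adjusted), Aldh1l1 with Aldoc (0.613, 0.00225 adjusted) and Gja1 with Gjb6 (0.476, 0.0364 adjusted).

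In these 29 mice Glul varied with the transporters of glutamate and with Aldoc. Glul with Aldoc had r = 0.761 (permutation p = 0.00043 and 0.00967 adjusted), rho = 0.734 (0.00675 adjusted) and r = 0.658 without 2 mice. Slc1a3 with Glul had r = 0.707 (permutation p = 0.00121 and 0.0136 adjusted), rho = 0.66 (0.0217 adjusted) and r = 0.659 without 2 mice. Slc1a2 with Glul was weaker, at r = 0.507 (permutation p = 0.00838 and 0.0471 adjusted), rho = 0.552 (0.0483 adjusted) and r = 0.601 without 2 mice. These pairs turned sign when the 9 mice were added, since over all 38 mice r was −0.43 for Glul and Aldoc, −0.324 for Slc1a3 and Glul and −0.129 for Slc1a2 and Glul, across sets of mice that lie apart.

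S100b varied with both transporters and the water channel in the 29 mice. With Slc1a3 it had r = 0.682 (permutation p = 0.00079 and 0.0118 adjusted), rho = 0.659 (0.0103 adjusted) and r = 0.605 without 2 mice. With Slc1a2 it had r = 0.614 (permutation p = 0.0067 and 0.0431 adjusted), rho = 0.567 (0.0483 adjusted) and r = 0.645 without 2 mice. With Aqp4 it had r = 0.608 (permutation p = 0.00226 and 0.0203 adjusted), rho = 0.582 (0.0409 adjusted) and r = 0.526 without 2 mice. Over all groups Aqp4 and S100b were both estimated higher in mice with Xist reads, by 0.27 and 0.18 on the log2 scale, though neither was called.

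The last of the 8 pairs was Aldh1l1 with Gjb6, at r = 0.663 (permutation p = 0.00382 and 0.0286 adjusted), rho = 0.588 (0.062 adjusted) and r = 0.643 without 2 mice. All 8 correlations were above 0 in both cohorts. The 9 other mice gave r = 0.664 for Glul and Aldoc, but −0.186 for Slc1a2 and Slc1a3 and −0.724 for Slc1a2 and Glul, and no p is given for them, since they are few and lie in 4 groups. Sox9 had r between −0.39 and 0.01 with the other members, none with an adjusted permutation p under 0.05.

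**Figure D5:**
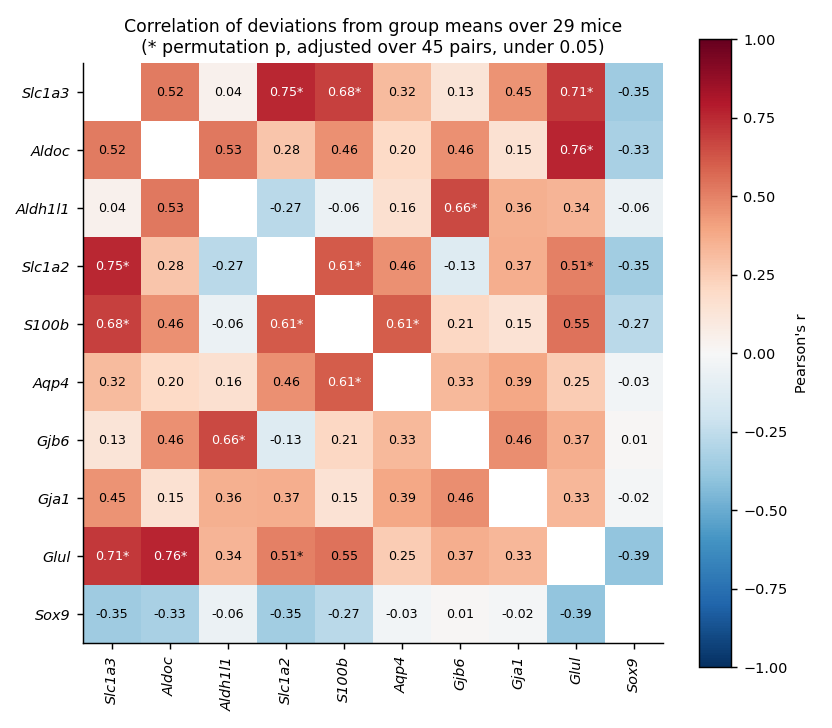
Pearson's r between the 10 genes over 29 mice (colour and number), computed on deviations of log2 CPM from group means, with an asterisk where the permutation p adjusted over 45 pairs is under 0.05. The pairs of Slc1a3 with Slc1a2, Glul and S100b are at 0.75, 0.71 and 0.68, and Sox9 has no pair with an asterisk.

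The genes most like the 10 as a set were found by correlating each of 18222 other tested genes with the mean deviation of the members over all 38 mice, as a description with no p. Among the most alike were Aldh6a1 (r = 0.743), a mitochondrial enzyme of valine breakdown, Fcrls (0.725), a receptor gene of microglia, Lamp1 (0.701), a lysosomal membrane protein, Snhg18 (0.698), Naalad2 (0.698), the X-linked translation factor gene Eif2s3x (0.695), B3gnt7 (0.683), Il18 (0.669) and Selenop (0.667), which encodes a selenium carrier. Of the 26 other astrocyte genes 4 were among the 100 most alike, and their median r was 0.281, against −0.013 for all genes compared. All points of these correlations share the same libraries and their depth, and they include both sets of mice set apart by oligodendrocyte transcripts. The part of sex in them was not tested.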

How the data were processed

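The authors made TruSeq mRNA libraries, aligned the reads to mm10 with STAR and assigned them to genes with HTSeq (mode intersection-nonempty). They deposited raw read counts for 48709 genes in each of 38 mice. The annotation release and the strandedness are not given in the sources used here. Symbols and lengths came from GENCODE M21 (48349 of 48709 genes matched) and promoters from RefSeq. Groups followed the sample titles. The 4 pre-plaque WT placebo mice are WT by title, although another label names the transgenic genotype.

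Genes passing filterByExpr (minimum count 10, total 15) were tested with edgeR 4.0.16 in R 4.3.3 (TMM, robust quasi-likelihood fit, Benjamini-Hochberg adjusted p under 0.1), on the mice of each comparison, 13 in all. P-values measure the spread between these mice. SE is the log2 fold change over the root of F. DESeq2 1.42.0 was an alternative, and the code was tested on simulated counts. For DESeq2, and for fits with a sex, Ttr or oligodendrocyte covariate, the share of all genes with unadjusted p under 0.05 was not computed. Counts of members at that p have no such share beside them there. The alternatives were other size factors, no filter, an adjusted p of 0.05, a sex covariate, a replicate block, 4 groups in 1 fit, single lanes and leaving out each mouse. Fits on mice with Y-linked reads, with a Ttr or oligodendrocyte covariate, and without the 9 mice low in oligodendrocyte markers were chosen after seeing the data, and so was computing correlations in the 29 others, in place of all 38. Within-group pairs of libraries differed by 3.17 to 65.3 times the sampling noise, so none was counted as 1 sample. Permutations within groups numbered 100000, and their smallest p is 1e-05.

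The members and lists were chosen with earlier results of these data known. Named were the 10 members, in each comparison those past the threshold or else the one with the smallest p, from other lists up to 4 called genes of largest change, the 10 most alike genes, and App and the sex-linked genes as checks. A gene among the 10 most alike is not reported here.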

Additional observations from a re-analysis of the deposited data

Results flagged for a closer look

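Of 80 sets of values, 10 genes in 8 groups, 6 had a mouse that stood apart from its group by Dixon's test, where chance alone gives about 1 in 20. The gap test was run on CPM.

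Aqp4 was at 207.1 CPM in replicate 4 of the pre-plaque APPPS1ΔE9 mice on placebo, against 163.6 to 168.8 CPM in the other 3. In the WT mice on anle138b of that cohort, replicate 2 was low in Slc1a3, at 664.7 CPM against 732.3 to 739.1 CPM, and in Aldoc, at 798.6 CPM against 899.8 to 919.6 CPM. The same mouse had the lowest oligodendrocyte marker sum of its cohort, 5234 CPM.

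Gja1 was at 160.6 CPM in replicate 2 of the post-plaque APPPS1ΔE9 mice on placebo, against 221.4 to 228.0 CPM in the other 4, and that mouse is 1 of the 9 with few oligodendrocyte transcripts. It was at 225.9 CPM in replicate 7 of those on anle138b, against 201.0 to 211.3 CPM. Sox9 was at 27.87 CPM in replicate 1 of the pre-plaque WT mice on placebo, against 25.63 to 25.88 CPM. The cause of these values was not tested.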

How the results depend on the processing

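The count of members past the threshold, 0 in each of the 13 comparisons, stayed 0 under most alternatives. It became 1, always Gja1, in the pre-plaque placebo genotype comparison with DESeq2 or with no filter on low counts (adjusted p = 0.0925 by edgeR) and in the pre-plaque APPPS1ΔE9 chow comparison with the same changes, and leaving out each mouse gave 0 to 1 there. It became 1, always Aqp4, in the post-plaque anle138b genotype comparison and over all mice, both with the sex covariate and in mice with Y-linked reads. In the post-plaque WT chow comparison of the 4 mice with Y-linked reads it was 4 (Aqp4, Slc1a3, Glul and Aldoc), where 5550 genes were called from 2 mice a group. The direction turned for Gjb6 in the post-plaque WT chow comparison, from −0.10 to 0.0826 in lane 4 only and to 0.0847 without the 9 mice low in oligodendrocyte markers, and for the post-plaque interaction term of Glul, from 0.24 to −0.0022 without them. The causes were not tested. Fits that left out 1 mouse called no member in any other comparison.

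The median correlation of the members was 0.08 in all 38 mice with either prior count, 0.33 in the 29 and 0.14 in the 9. Replicate numbers were not taken as pairs, since no comparison had every same-numbered pair correlated above 0.1. The mean r of same-numbered mice ran from −0.351 (post-plaque APPPS1ΔE9 chow comparison, 0.0667 for other numbers) to 0.417 (post-plaque WT chow comparison, −0.11 for other numbers). The rule therefore does not exclude pairing in single comparisons. With a replicate block 0 members were called in every comparison. Over all mice edgeR called 298 genes, 280 with the block, 469 with no filter and 706 in mice with Y-linked reads. DESeq2 called 139 genes where edgeR called 12 in the pre-plaque placebo comparison, 47 for 8 in that on anle138b, 204 for 9 in the APPPS1ΔE9 chow comparison, 1.96 times the 55 of edgeR in the post-plaque placebo comparison and 189 for 124 in that on anle138b. With no filter edgeR called 110 in the pre-plaque placebo and 120 in the pre-plaque APPPS1ΔE9 chow comparison, and with the block 25 and 20 in the post-plaque genotype comparisons on placebo and anle138b. Each member had at least 313 counts in every library, and the groups held 4 to 7 mice, which limits the precision.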

Other observations

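The 10 genes were also set beside the level of 12 marker lists and the library total in the 29 mice, 130 relations that were chosen after seeing the data. With p-values adjusted over all of them, 5 had an adjusted permutation p under 0.05. S100b varied with the oligodendrocyte markers (r = 0.753, permutation p = 4e-05 and 0.0052 adjusted, rho = 0.772, also 0.0052 adjusted, and r = 0.741 without the 2 mice farthest from the median), and S100b is a gene that oligodendrocytes express too. Its r was 0.774 over 16 mice of 6 months and 0.781 over 13 mice of 10 months, but 0.152 in the 9 others.

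Aqp4 varied with the 8 microglia markers (r = 0.759, permutation p = 0.00011 and 0.00715 adjusted, rho = 0.75, 0.013 adjusted, and r = 0.779 without 2 mice). Here r was 0.806 at 6 months, 0.714 at 10 months and 0.608 in the 9 other mice, over deviations from group means that leave the difference between genotypes out. S100b with the microglia markers had r = 0.633 (permutation p = 0.00159 and 0.0413 adjusted), rho = 0.664 (0.0211 adjusted) and r = 0.614 without 2 mice. Glul with the 26 other astrocyte genes had r = 0.682 (permutation p = 0.00063 and 0.0205 adjusted), rho = 0.658 (0.0211 adjusted) and r = 0.528 without 2 mice. Gjb6 with the glutamate and glutamine cycle genes had r = 0.586 (permutation p = 0.00051 and 0.0205 adjusted), rho = 0.598 (0.0381 adjusted) and r = 0.558 without 2 mice. The last was −0.273 in the 9 other mice. All of these points share libraries and depth, and the part of sex in them was not tested.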
